A study of Mus musculus with 9 samples.

Results

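The angiomotin and Hippo pathway genes described here were 10 of the 54232 genes in the deposited count table: the angiomotins *Amot*, *Amotl1* and *Amotl2*, the coactivators *Yap1* and *Wwtr1* (which encodes TAZ), the kinase gene *Lats2*, and the TEAD factors *Tead1*, *Tead2*, *Tead3* and *Tead4*. They were taken by gene symbol, and all 10 were found and passed the filter on low counts. They were selected on expression values of these same libraries, so every level and difference given for them is a description without a test. RNA-seq had been made from mouse pluripotent stem cells of the C57 x CBA background, with 2 libraries in each of 4 groups: naïve mESCs at passage 5 (P5), primed mEpiSCs at P5, naïve mESCs at P15 and primed mEpiSCs at P15. Naïve cells were kept in serum and LIF, the primed cells were derived from them by culture in Fgf2 and Activin A, both states carried an Oct4-driven GFP reporter and grew on inactivated mouse embryonic fibroblasts (MEFs), and 1 library came from MEFs alone. The labels number the libraries of a group but do not say whether they came from separate cultures. The paper describes its expression levels of telomerase genes as 2 biological repeats, without describing the cultures. The errors below come from the edgeR fit rather than from the 2 libraries of each gene alone. They rest on variation between 2 libraries per group, which may be technical.

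The Hippo pathway is a kinase cascade in which MST kinases with their adaptor SAV1 activate LATS kinases with their adaptor MOB1. LATS kinases phosphorylate the coactivators YAP and TAZ and keep them out of the nucleus, where they would otherwise bind TEAD factors on DNA. Angiomotins bind YAP and TAZ at cell junctions and on actin filaments, and also bring LATS kinases to them. In the preimplantation embryo this pathway separates the outer trophectoderm, in which TEAD4 with nuclear YAP drives *Cdx2* and *Gata3*, from the inner cell mass, the source of naïve cells.

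Between 14378051 and 20985136 reads were counted per pluripotent library, and 25646547 in the MEF library. The states matched their labels: all 5 naïve markers examined, *Zfp42*, *Esrrb*, *Klf4*, *Nr0b1* and *Tbx3*, were called lower in primed cells at both passages, and all 5 primed markers, *Fgf5*, *T*, *Otx2*, *Pou3f1* and *Cer1*, were called higher. The pluripotency marker *Pou5f1* had means of 712 CPM in naïve P5, 211 CPM in primed P5, 756 CPM in naïve P15 and 598 CPM in primed P15. It was called lower in primed cells at P5 (log2 -1.72) and not at P15 (-0.35). The naïve marker *Esrrb* still had a mean of 57.3 CPM in primed P5, against 4.06 CPM in primed P15. Fibroblast RNA was present in all 8 pluripotent libraries. Relative to the MEF library, the 15 fibroblast markers had a median level of 10.9 to 11.7% in the P5 libraries of both states, 17.6 to 17.8% in naïve P15 and 25.0 to 25.5% in primed P15, and their summed level was 60665 CPM (counts scaled to library size, per 1e+06 reads) in MEFs. That sum was 6317 and 6338 CPM in naïve P5, 3760 and 3660 CPM in primed P5, 11304 and 11811 CPM in naïve P15, and 10608 and 10206 CPM in primed P15. In primed against naïve cells, 6 of the 15 were called lower and 3 higher at P5, with a median log2 difference of -0.56, and 2 lower and 4 higher at P15, with a median of 0.08. The marker with the lowest ratio in a library lay between 2.61 and 7.09% of its MEF level. None of the markers was at 0, and *Dcn* stood at 216 to 354% of its MEF level in the primed libraries. MEF values are therefore given beside each of the 10 genes and most of the others named. Differences with a fibroblast share taken off the counts are given for some of them. The other differences may depend on that share too. In bulk RNA, fewer expressing cells and less RNA per cell cannot be told apart.

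Sequence before a RefSeq start is shown for *Amot*, which had the widest difference between the states, and for the coactivators *Yap1* and *Wwtr1*. It is also shown for *Tead2*, the leading TEAD gene per kilobase in the pluripotent cells. RefSeq windows from 250 bases before to 50 bases after the start were found for 8 of the 10 genes (GRCm38.p6; 12 windows, since some genes have several starts). They were searched on both strands for the letters GGAATG, a core recognised by TEAD factors. On the strand opposite to the gene a match reads CATTCC, and overlapping matches were counted. The letters stood in 7 of the 12 windows, from 5 of the 8 genes (*Amotl2*, *Yap1*, *Wwtr1*, *Lats2*, *Tead3*). They stood in no window of *Amot*, *Amotl1* or *Tead2*, while 14.7% of all 32851 promoter windows of this length held them. The windows of *Wwtr1* overlap and share the same match, and that of *Lats2* lies after the start. Windows of the 8 genes held a median of 23 CpG sites against 7 over all windows, and the difference in shares was not tested. All windows of *Amot*, *Amotl1*, *Amotl2* and *Lats2* lie inside the gene spans given below, so the 5′ ends of those spans were not searched. The stretches upstream of the start and outside annotated exons were as follows, 5′ to 3′ along the gene, with the match in capitals.
Amot, chrX:145487657-145487889, minus strand: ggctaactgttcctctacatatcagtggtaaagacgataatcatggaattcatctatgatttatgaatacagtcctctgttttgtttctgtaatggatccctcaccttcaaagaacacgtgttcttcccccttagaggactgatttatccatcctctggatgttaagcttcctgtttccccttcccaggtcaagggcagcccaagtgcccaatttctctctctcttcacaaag
Yap1, chr9:8004597-8004829, minus strand: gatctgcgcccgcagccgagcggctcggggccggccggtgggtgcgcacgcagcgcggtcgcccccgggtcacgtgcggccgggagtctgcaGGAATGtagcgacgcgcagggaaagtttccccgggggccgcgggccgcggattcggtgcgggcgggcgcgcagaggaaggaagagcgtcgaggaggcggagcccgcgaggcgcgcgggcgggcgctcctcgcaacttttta
Wwtr1, chr3:57575911-57576160, minus strand: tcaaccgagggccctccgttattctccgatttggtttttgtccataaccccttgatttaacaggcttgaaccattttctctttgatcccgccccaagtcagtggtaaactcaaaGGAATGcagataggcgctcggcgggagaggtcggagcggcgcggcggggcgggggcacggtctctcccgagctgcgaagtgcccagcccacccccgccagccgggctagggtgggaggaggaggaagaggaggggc
Tead2, chr7:45215542-45215752, plus strand: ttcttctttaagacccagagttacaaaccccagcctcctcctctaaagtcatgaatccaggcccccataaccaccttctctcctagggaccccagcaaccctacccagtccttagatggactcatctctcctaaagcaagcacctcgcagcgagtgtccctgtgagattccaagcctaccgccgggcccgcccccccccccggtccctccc
The match began 141 bases before the start in *Yap1* and 136 bases before the further upstream of the 2 starts of *Wwtr1*. These matches are letters in a window, and binding was not measured.

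*Amot*, which encodes the founding angiomotin (ENSMUSG00000041688, GRCm38 chrX:145446425-145505181, minus strand), had by far the widest range of the 10 genes between states. Its level was 17.1 and 17.5 CPM in the naïve P5 libraries and 574 and 575 CPM in the primed P5 libraries. At P15 it was 17.2 and 17.3 CPM in naïve cells and 251 and 259 CPM in primed cells, and the MEF library held 59.5 CPM. No primed library came near a naïve library at either passage. The fitted difference was 5.09 ± 0.05 on the log2 scale (SE, n = 2 libraries per state) at P5, a 34.0-fold higher level in primed cells, and 3.88 ± 0.08 at P15, a 14.7-fold higher level. The levels of the naïve groups overlapped each other, whereas in primed cells the P15 level was 2.30-fold below that at P5, a log2 difference of -1.20 ± 0.04. *Amot* RNA in primed cells exceeded what the fibroblasts themselves contained, by 9.65 times at P5 and 4.28 times at P15. In naïve cells the same ratio was 0.290 at P5 and 0.289 at P15. If the naïve and primed libraries held MEF RNA at the median marker ratio, it would make up between 1.16 and 61.9% of their *Amot* counts, and at the lowest marker ratio no more than 22.9%. With the median share taken off, the *Amot* difference between states was 5.79 at P5 and 5.30 at P15 (log2).

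**Figure D1:**
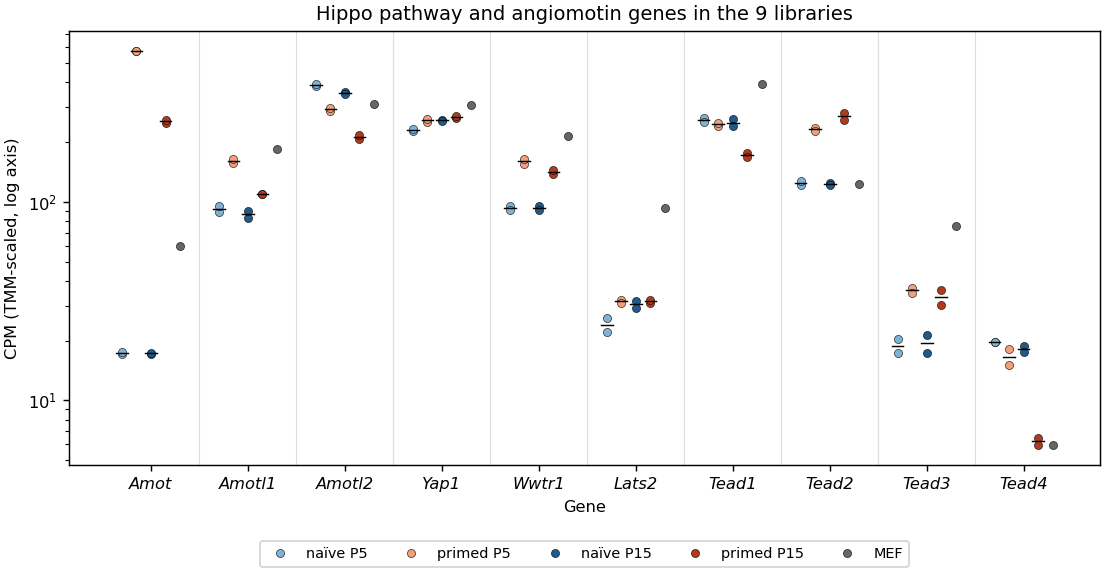
Level of the 10 genes in each of the 9 libraries, in CPM on a log axis. Points are libraries coloured by group and black bars are group means; *Amot* lies at 17.1 to 17.5 CPM in naïve P5 and 574 to 575 CPM in primed P5, while *Tead4* is lowest in primed P15 (5.96 to 6.48 CPM) and MEFs (5.95 CPM).

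*Amotl1* and *Amotl2*, the angiomotin paralogs, differed far less and in opposite directions. *Amotl1* (ENSMUSG00000013076, chr9:14541966-14645056) was at 88.6 and 94.7 CPM in naïve P5, 157 and 165 CPM in primed P5, 83.1 and 89.6 CPM in naïve P15, 109 and 110 CPM in primed P15, and 184 CPM in MEFs. Its primed libraries lay above its naïve libraries at both passages, by 0.84 ± 0.05 at P5 and 0.33 ± 0.07 at P15 on the log2 scale. *Amotl2* (ENSMUSG00000032531, chr9:102716672-102733418), which is itself a known target gene of YAP, was at 385 and 391 CPM in naïve P5, 288 and 298 CPM in primed P5, 358 and 349 CPM in naïve P15, 207 and 216 CPM in primed P15, and 311 CPM in MEFs. Here the primed libraries lay below the naïve ones at both passages, by -0.37 ± 0.04 and -0.75 ± 0.06. The P15 difference was -1.02 with the median fibroblast share taken off. The levels of *Amotl2* had no overlap between any of its 4 groups, in the order naïve P5, naïve P15, primed P5, primed P15 from high to low.

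Per kilobase of exon, the scale on which different genes can be compared, the angiomotin that made up most of the family differed between states. *Amotl2* supplied 84.7% of the summed angiomotin level in naïve P5 and 84.1% in naïve P15, against 35.6% and 45.0% in primed P5 and P15. *Amot* supplied 2.82% and 3.06% in naïve cells, and 52.2% and 40.5% in primed cells. *Amotl1* kept close to its share throughout, with 12.5% and 12.8% in naïve and 12.2% and 14.5% in primed cells. The summed level was 72.9 CPM per kb in naïve P5 and 131 CPM per kb in primed P5, and 66.9 and 74.9 CPM per kb at P15. The composition in MEFs was closer to that of naïve cells, with 66.0% from *Amotl2*, 24.5% from *Amotl1* and 9.48% from *Amot*.

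**Figure D2:**
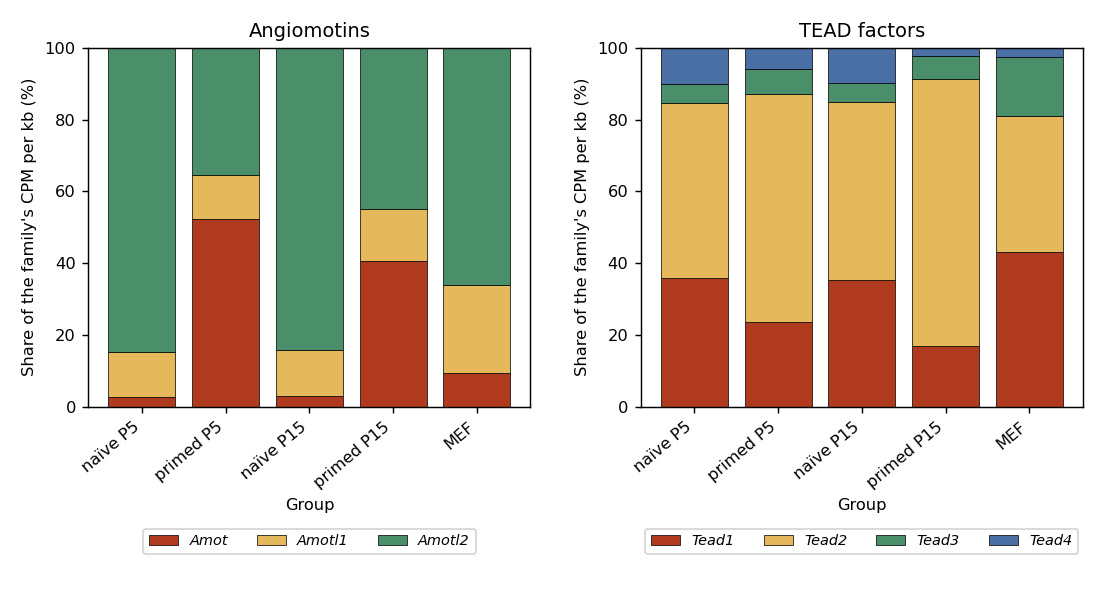
Share of each gene in the summed level of its family, in percent of CPM per kilobase of exon; bars are group means of 2 libraries (MEF, 1 library). *Amot* takes 52.2% of the angiomotin level in primed P5 against 2.82% in naïve P5, and *Tead2* takes 74.5% of the TEAD level in primed P15 against 49.4% in naïve P15.

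The coactivator genes were expressed in every group, and *Yap1* varied least of all 10 genes. *Yap1* (ENSMUSG00000053110, chr9:7931999-8004596) was at 227 and 234 CPM in naïve P5, 253 and 262 CPM in primed P5, 259 and 255 CPM in naïve P15, 265 and 269 CPM in primed P15, and 307 CPM in MEFs. The primed libraries were the higher at both passages, although only by 0.19 ± 0.04 at P5 and 0.05 ± 0.06 at P15 (log2), and the naïve P15 and primed P5 libraries overlapped. *Wwtr1* (ENSMUSG00000027803, chr3:57455649-57575910) was at 94.9 and 91.3 CPM in naïve P5, 156 and 165 CPM in primed P5, 95.6 and 91.1 CPM in naïve P15, 138 and 145 CPM in primed P15, and 214 CPM in MEFs. Its primed libraries stood above its naïve libraries by 0.81 ± 0.04 at P5 and 0.59 ± 0.07 at P15, while the naïve groups overlapped. The P5 difference was 1.02 and the P15 difference 0.79 with the median fibroblast share taken off. Per kilobase, *Yap1* supplied the larger part of the pair in naïve cells, 56.1% at P5 and 58.7% at P15, and the smaller part in primed cells, 45.4% and 49.4%.

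*Lats2* (ENSMUSG00000021959, chr14:57689662-57758388), the gene of one of the LATS kinases that act on YAP and TAZ, was low in pluripotent cells of both states. It was at 26.1 and 22.0 CPM in naïve P5, 31.9 and 31.0 CPM in primed P5, 31.7 and 29.0 CPM in naïve P15, 31.0 and 32.1 CPM in primed P15, and 93.6 CPM in MEFs. Only the naïve P5 libraries stood apart from the rest, and the other 3 pluripotent groups overlapped. The difference between states was 0.42 ± 0.08 at P5 and 0.05 ± 0.09 at P15 (log2). The MEF level was above that of every pluripotent library, and MEF RNA at the median marker ratio would make up between 33.8 and 75.4% of the *Lats2* counts, and at the lowest marker ratio up to 25.0%. With the median share taken off, the P15 difference was -0.66, so that its direction depends on that share. *Lats2* also shares 42.4% of its annotated exon bases with the gene model *Gm49361* on the same strand, which held 0 counts in every library. How the authors' counting treated reads that fall on both models is not given in the sources used here, and the *Lats2* counts may be incomplete. Smaller overlaps on the opposite strand, which the kit does not tell apart, were 1.25% of the *Yap1* exon bases with *Gm20416* (at most 1 count) and 0.272% of those of *Tead2* with *Cd37* (at most 62 counts).

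Of the TEAD factor genes, *Tead2* and *Tead3* were higher in primed cells at both passages, and *Tead4* and *Tead1* were lower in them at P15. *Tead2* (ENSMUSG00000030796, chr7:45215753-45233644), the TEAD gene best known for its expression in early embryos and stem cells, was at 122 and 128 CPM in naïve P5, 236 and 229 CPM in primed P5, 125 and 122 CPM in naïve P15, and 281 and 260 CPM in primed P15. The naïve libraries overlapped the MEF library at 122 CPM, and the primed libraries lay above them by 0.93 ± 0.04 at P5 and 1.12 ± 0.06 at P15 on the log2 scale. *Tead3* (ENSMUSG00000002249, chr17:28331671-28350817) was at 20.4 and 17.2 CPM in naïve P5, 36.8 and 34.8 CPM in primed P5, 17.4 and 21.3 CPM in naïve P15, 35.9 and 30.0 CPM in primed P15, and 75.4 CPM in MEFs. Its difference between states was 0.96 ± 0.09 at P5 and 0.75 ± 0.11 at P15, and within each state the passages overlapped. The *Tead3* difference was 1.44 at P5 and 1.34 at P15 with the median fibroblast share taken off.

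*Tead4* (ENSMUSG00000030353, chr6:128224288-128300823), the TEAD factor required for the trophectoderm, was lowest in late primed cells. It was at 19.6 CPM in both naïve P5 libraries, 15.1 and 18.1 CPM in primed P5, 18.9 and 17.5 CPM in naïve P15, and 6.48 and 5.96 CPM in primed P15. The MEF library held 5.95 CPM, just under the primed P15 libraries, and primed P5 overlapped naïve P15. The difference between states was -0.21 ± 0.10 at P5 and -1.56 ± 0.15 at P15, a 2.94-fold lower level in late primed cells. Within primed cells the P15 level was 2.72-fold below that at P5 (log2 -1.44 ± 0.13), against -0.12 ± 0.11 within naïve cells. *Tead1* (ENSMUSG00000055320, chr7:112679318-112906807) was at 265 and 253 CPM in naïve P5, 241 and 251 CPM in primed P5, 262 and 240 CPM in naïve P15, 175 and 169 CPM in primed P15, and 394 CPM in MEFs. Late primed cells again stood apart, by -0.55 ± 0.06 from naïve cells of that passage, while at P5 the difference was -0.04 ± 0.04. That P5 value turned to 0.16 when libraries were scaled by size alone, a scaling that moved the median of all genes by 0.21. The P15 difference of *Tead1* was -1.18 with the median fibroblast share taken off.

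Per kilobase, *Tead2* was the leading TEAD gene in all 4 pluripotent groups, with 48.8% of the summed TEAD level in naïve P5, 49.4% in naïve P15, 63.3% in primed P5 and 74.5% in primed P15. *Tead1* came next, with 35.7% and 35.4% in naïve P5 and P15 and 23.7% and 16.8% in the primed groups, and was the leading one in MEFs at 43.0%. *Tead4* supplied 10.2% and 9.69% in naïve cells, 6.03% in primed P5 and 2.28% in primed P15. *Tead3* stayed between 5.24% and 6.97% in the pluripotent groups and reached 16.6% in MEFs. The summed TEAD level was 53.4 and 52.2 CPM per kb in naïve P5 and P15 and 76.5 and 75.8 CPM per kb in the primed groups.

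**Figure D3:**
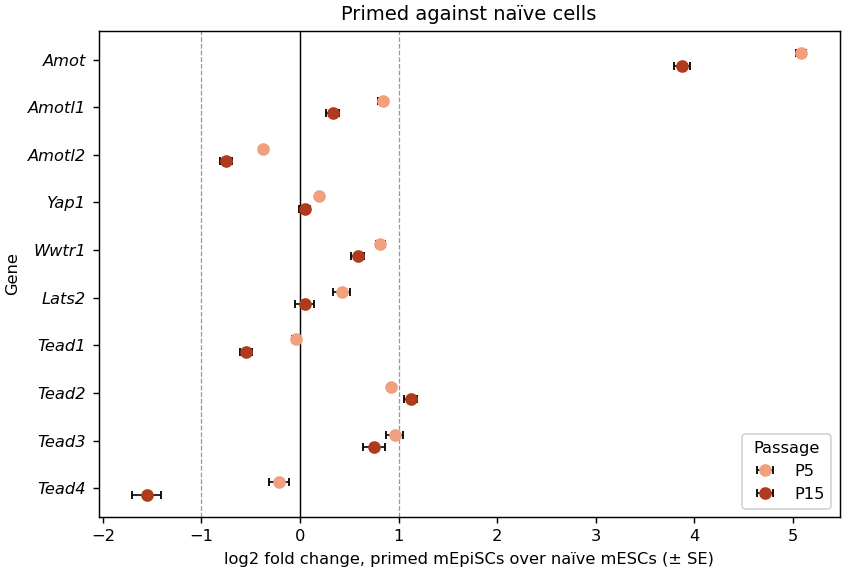
Difference of each of the 10 genes between primed and naïve cells, as log2 fold change with its SE (2 libraries per state), at P5 and at P15; dashed lines mark 2-fold. *Amot* stands at 5.09 and 3.88, *Tead2* at 0.93 and 1.12, and *Tead4* at -0.21 and -1.56; the Tead1 value at P5 (-0.04) turned to 0.16 with library size alone and the Lats2 value at P15 (0.05) turned to -0.66 with the median fibroblast share taken off.

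Counts of the 10 genes past a threshold are given beside the same share over all tested genes, and nothing is read from them because the genes were chosen with these values known. Called genes had an adjusted p under 0.01 in edgeR's quasi-likelihood test across all genes and a change of 2-fold or more. At P5, 1 of the 10, *Amot*, was called higher and 0 lower in primed cells, when 13.5% of 16482 tested genes were called higher and 8.85% lower. Without the fold limit these were 7 higher and 1 lower, against 31.2% and 31.1% of all genes. At P15, *Amot* and *Tead2* were called higher and *Tead4* lower, against 12.2% and 11% of 15733 genes, and without the fold limit 5 were higher and 3 lower against 28.2% and 28.4%. With TMM scaling, all 10 genes had no overlap between the states at P5, 7 with primed above naïve and 3 below; at P15 this held for 9 genes, 6 above and 3 below, with *Lats2* overlapping. Such separation was common, at 84.6% of all tested genes at P5 (41.0% above and 43.6% below) and 81.9% at P15 (41.7% above and 40.2% below). The median log2 difference of the 10 genes was 0.62 at P5 and 0.19 at P15, beside medians of 0.01 and -0.00 over all genes.

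Between passages, the 10 genes differed little in naïve cells. Their log2 differences from P5 to P15 ran from -0.14 for *Amotl2* to 0.33 for *Lats2*, and 0 were called, with 0.461% of 16926 genes called higher and 0.851% lower at P15. Without the fold limit 1, *Lats2*, passed upward, against 5.08% and 6.79% of all genes. In primed cells 2.83% of genes were called higher at P15 and 7.89% lower. Of the 10 genes, *Amot* and *Tead4* met the thresholds of a lower call, given as a description without a test. Without the fold limit 6 were lower and 1, *Tead2*, was higher, beside 22.4% of all genes higher and 21.4% lower. The primed P15 libraries were also those with the highest fibroblast marker ratios, 25.0 to 25.5% against 11.2 to 11.7% at P5. With the median share taken off, the primed passage difference was -1.02 for *Amot*, but -1.17 for *Lats2* and -1.25 for *Tead1*, which stood at -0.03 and -0.55 before.

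The difference between the state effects at the passages, P15 minus P5, was -1.19 ± 0.09 for *Amot* and -1.33 ± 0.17 for *Tead4* (log2). Both met the thresholds of a call, again given as a description without a test. The difference was negative for 9 of the 10 genes, *Tead2* at 0.21 ± 0.07 being the exception. Its median was -0.36 beside -0.00 over all genes. Over all genes 2.36% were called positive and 4.8% negative, and without the fold limit 13.3% and 10.8%, when 0 and 5 of the 10 passed. With the median fibroblast share taken off, the *Amot* value was -0.46.

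The other genes of the pathway, 74 in 6 lists, were chosen by their role in it, with earlier results of these data known, and were tested with all genes. Below, rose and fell mean an adjusted p under 0.01, and called adds the 2-fold limit. At P5, 12 of the 72 with enough counts were called higher in primed cells and 3 lower, shares of 16.7% and 4.17% beside the background of 13.5% and 8.85%. At P15, 6 were called higher and 8 lower, or 8.33% and 11.1% beside 12.2% and 11%. Their median log2 difference was 0.14 at P5 and -0.03 at P15. The states did not overlap for 40 above and 26 below of the 74 genes at P5, and for 31 above and 30 below at P15. The 74 include *Vgll1* and *Vgll2*, which had too few counts to be tested. Of all tested genes, 41.0% lay above and 43.6% below at P5, and 41.7% above and 40.2% below at P15.

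**Figure D4:**
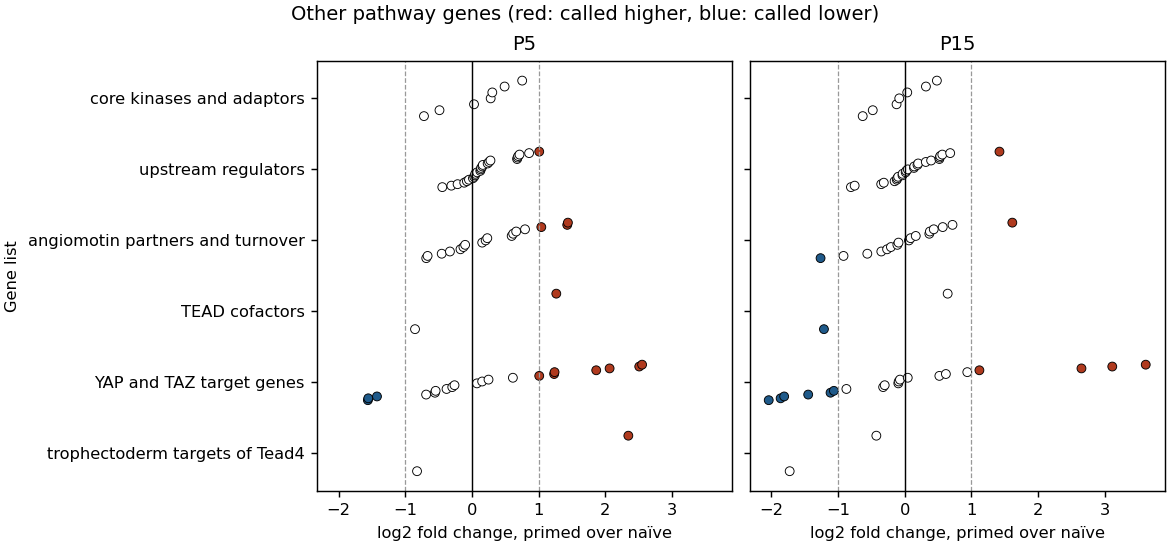
Log2 fold change between primed and naïve cells of the other pathway genes at P5 (left) and P15 (right), 1 point per tested gene, ordered by value within its list. Filled points were called higher (red) or lower (blue), open points were not, and dashed lines mark 2-fold; the YAP and TAZ target genes spread to both sides, with 7 higher and 3 lower called at P5 and 4 and 6 at P15.

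Of the core kinases and adaptors, 0 of 7 reached a 2-fold change at either passage by edgeR or by DESeq2. At an adjusted p under 0.01 alone 4 were higher and 2 lower at P5, and 2 higher and 2 lower at P15, which were also the counts at an unadjusted p under 0.05. *Nf2*, the gene of the upstream adaptor Merlin, was at 156 and 158 CPM in naïve P5 and 94.1 and 92.0 CPM in primed P5, with 81.8 CPM in MEFs. It fell on the log2 scale by 0.72 ± 0.04 at P5 (adjusted p = 3.34e-15), and by 0.63 ± 0.06 (adjusted p = 5.79e-11) at P15. *Stk4*, which encodes the kinase MST1, fell by 0.49 ± 0.05 and 0.48 ± 0.07, and *Stk3*, which encodes MST2, rose by 0.28 ± 0.08 and 0.32 ± 0.10. *Sav1*, their adaptor, rose by 0.75 ± 0.07 (adjusted p = 1.64e-10) and 0.48 ± 0.09 (adjusted p = 2.76e-05). *Lats1* and *Mob1b* rose at P5, by 0.30 ± 0.06 and 0.49 ± 0.06, and did not pass at P15, where they stood at 0.04 and -0.12. The difference between the passages itself passed for *Mob1b* (-0.59, adjusted p = 2.81e-05) and not for *Lats1* (-0.25, adjusted p = 0.0374). *Mob1a* differed by 0.03 at P5 and -0.08 at P15 and did not pass. The MEF levels of these genes were 41.7 CPM for *Stk4*, 35.2 CPM for *Stk3*, 40.5 CPM for *Sav1*, 106 CPM for *Lats1*, 57.3 CPM for *Mob1b* and 214 CPM for *Mob1a*.

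Of the 25 upstream regulators, 1 (4%) was called higher at each passage, beside 13.5% of all genes at P5 and 12.2% at P15. At P5 this was *Ptpn14*, a phosphatase gene whose product binds YAP, at 138 CPM in naïve and 277 and 266 CPM in primed libraries, with 128 CPM in MEFs (log2 1.01 ± 0.04, adjusted p = 9.02e-20). Its change sat at the 2-fold limit and fell just short of it without naïve P5 replicate 1 (0.98) or replicate 2 (0.99), in a fit of all 8 libraries (0.99) and with no filter on low counts (0.999). At P15 it was *Dchs1*, a protocadherin gene, at 27.8 and 29.2 CPM in naïve, 80.3 and 73.7 CPM in primed and 191 CPM in MEFs (1.42 ± 0.08, adjusted p = 1.32e-17). *Dchs1* stood at 0.86 ± 0.06 at P5, and passed 2-fold there too with library size alone (1.06) and with the median (1.5) or lowest (1.19) fibroblast share taken off. MEF RNA at the median marker ratio would make up between 32.3 and 122% of its counts. None was called lower at either passage, with 4 past an unadjusted p under 0.05 at each passage and 0 called by DESeq2.

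The angiomotin partners and turnover genes encode junction proteins that bind angiomotins and enzymes that act on their turnover. At P5, 3 of 17 (17.6%) were called higher, beside 13.5% of all genes. *Patj* and *Mpdz*, genes of related PDZ scaffolds, rose by 1.44 ± 0.08 (adjusted p = 1.41e-16) and 1.43 ± 0.07 (adjusted p = 1.15e-17). *Tnks*, the gene of a tankyrase, an enzyme that targets angiomotins for degradation, rose by 1.04 ± 0.04 (adjusted p = 1.61e-19), and by 0.96 without naïve P5 replicate 1, under the fold limit. The MEF levels were 12.1 CPM for *Patj* and 130 CPM for *Tnks*. At P15 *Mpdz* was the one called higher, at 24.5 and 25.9 CPM in naïve, 80.3 and 75.2 CPM in primed and 99.3 CPM in MEFs (1.61 ± 0.08, adjusted p = 4.22e-19). This was a share of 5.88%, beside 12.2% of all genes. With the median fibroblast share taken off, the *Mpdz* difference was 2.01 at P5 and 2.93 at P15. None was called lower at P5, where 6 were lower at an unadjusted p under 0.05 and 0 by DESeq2.

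Of the TEAD cofactors, *Vgll4*, which encodes a TEAD-binding protein that competes with YAP, rose by 1.26 ± 0.08 at P5 (adjusted p = 1.45e-14). At P15 the rise was 0.64 ± 0.10 (adjusted p = 1.18e-06). It was at 17.0 and 19.0 CPM in naïve and 42.9 and 41.7 CPM in primed P5, and 42.1 CPM in MEFs. *Vgll3* fell by 0.85 ± 0.06 at P5 (adjusted p = 2.14e-13) and by 1.21 ± 0.08 in late cells (adjusted p = 3.12e-15), with 141 CPM in MEFs. With the median fibroblast share taken off, its P5 difference was -1.33, past 2-fold. Its P15 difference was then -4.71, which rests on few or no remaining counts, and -1.42 with the lowest share. *Vgll1* and *Vgll2* had too few counts to be tested, at no more than 0.298 and 0.388 CPM.

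The YAP and TAZ target genes were called in both directions. At P5, 7 of 20 were called higher and 3 lower, and at P15 4 higher and 6 lower, with medians of 0.11 and -0.09 on the log2 scale. The higher calls at P5 include *Ptpn14*, which is listed among the upstream regulators too, and were 6 by DESeq2. Of all genes, 13.5% were called higher and 8.85% lower at P5, and 12.2% and 11% at P15. Of the 3 targets most often read out for YAP, *Ccn2* (also known as CTGF) was at 431 and 435 CPM in naïve P5, 143 and 145 CPM in primed P5, 594 and 578 CPM in naïve P15, and 217 and 216 CPM in primed P15. It fell by 1.56 ± 0.04 (adjusted p = 4.79e-25) and 1.45 ± 0.06 (adjusted p = 8.57e-23), and no primed library reached a naïve one. *Ccn1* (CYR61) was at 396 CPM in primed and 498 CPM in naïve P5, and fell at P5 by 0.30 ± 0.03 (adjusted p = 6.93e-09), and at P15 differed by 0.05 ± 0.06 (adjusted p = 0.476). *Ankrd1* differed by 0.15 ± 0.08 at P5 (adjusted p = 0.103), and at P15 was at 37.3 and 35.9 CPM in naïve and 8.38 and 9.54 CPM in primed cells, a fall by 2.04 ± 0.12 (adjusted p = 9.61e-18). These genes were abundant in MEFs too, at 808 CPM for *Ccn2*, 707 CPM for *Ccn1* and 35.0 CPM for *Ankrd1*. The P15 difference of *Ankrd1* was -6.43 with the median fibroblast share taken off, on few or no remaining counts. It was -2.33 with the lowest share. The summed fibroblast marker level at P5 was lower in primed cells (3660 to 3760 against 6317 to 6338 CPM). The median marker ratio at P5 was 10.9 to 11.7% over both states. At P15 the sum was 10206 to 10608 CPM in primed and 11304 to 11811 CPM in naïve cells. The median ratio at P15 was higher in primed cells, 25.0 to 25.5% against 17.6 to 17.8%. The *Ccn2* difference was -2.69 at P5 and -5.03 at P15 with the median fibroblast share taken off, and -1.69 and -1.68 with the lowest. That median share was as much as 95.4% of the *Ccn2* counts of a library, so the -5.03 rests on few remaining counts. Otherwise the part of fibroblast RNA in the *Ccn2* difference was not tested.

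Other target genes rose instead. *Igfbp3*, which encodes a binding protein of insulin-like growth factors, was at 47.6 and 46.9 CPM in naïve P5, 269 and 273 CPM in primed P5, 66.1 and 66.0 CPM in naïve P15, and 804 and 826 CPM in primed P15. It rose by 2.55 ± 0.04 (adjusted p = 1.98e-28) and 3.61 ± 0.06 (adjusted p = 8.83e-34), with 1051 CPM in MEFs. With the median fibroblast share taken off, these differences were 14.6 and 16.2, with no naïve counts left. *Nt5e*, the gene of the ecto-enzyme CD73, rose by 2.51 ± 0.12 (adjusted p = 1.2e-17) and 2.65 ± 0.15 (adjusted p = 4.78e-18), and its primed P5 mean of 26.5 CPM was above the MEF library at 11.7 CPM. *Nuak2*, which encodes a kinase of the AMPK family, rose at P5 by 1.86 ± 0.10 (adjusted p = 8.59e-17), and at P15 by 0.94 ± 0.14 (adjusted p = 4.07e-07), just under 2-fold. It passed 2-fold at P15 without primed P15 replicate 1 (1.03), with library size alone (1.04), and with the median (1.25) or lowest (1.03) fibroblast share taken off, and its MEF level was 14.8 CPM. *Tgfb2*, a ligand gene of the TGF-beta family, rose by 2.06 ± 0.09 at P5 (adjusted p = 1.32e-18) and at P15 fell by 0.32 (adjusted p = 0.00799), short of 2-fold. With 83.6 CPM in MEFs, its P15 difference depended on the fibroblast share. It was -4.57 (adjusted p = 0.000149) with the median share taken off, and -0.38 (adjusted p = 0.0187) with the lowest. The median share was as much as 105% of its counts in a library, so the -4.57 rests on few or no remaining counts. *F3*, the tissue factor gene, fell at P5 by 1.43 ± 0.06 (adjusted p = 1.89e-18), and at P15 by 1.86 ± 0.09 (adjusted p = 9.03e-20). It was at 132 CPM in MEFs, and its P5 difference was -2.24 with the median fibroblast share taken off and -1.53 with the lowest. At P15 the median share was more than its primed counts held, and with the lowest share its difference was -2.46.

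Of the trophectoderm targets of TEAD4, *Gata3* was at 1.29 and 1.53 CPM in naïve P5 and 7.11 and 6.99 CPM in primed P5, with 1.45 CPM in MEFs, and rose by 2.34 ± 0.22 (adjusted p = 1.55e-10). At P15 it was at 2.50 and 2.81 CPM in naïve and 1.72 and 2.27 CPM in primed cells, and did not pass (-0.43 ± 0.31, adjusted p = 0.228). *Cdx2* stayed at or under 1.15 CPM in every library and passed at neither passage (-0.82 ± 0.54, adjusted p = 0.177 at P5, and -1.73 ± 0.67, adjusted p = 0.0233 at P15). It was called at P15 without naïve P15 replicate 1 (-2.02, adjusted p = 0.00235) and without primed P15 replicate 2 (-6.90, adjusted p = 0.000172), which leaves a primed library with 0 counts.

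Between passages, 1 of the 72 other genes was called higher in naïve cells at P15, *Tgfb2* (1.27 ± 0.10, adjusted p = 4.57e-11), a share of 1.39%. None was called lower by edgeR or DESeq2, with 18 lower at an unadjusted p under 0.05. In primed cells 2 were called higher and 6 lower, shares of 2.78% and 8.33%. The named genes among them were *Igfbp3*, higher by 1.56 ± 0.04, and *Patj*, *Ankrd1*, *Nuak2*, *Tgfb2* and *Gata3*, which fell by 1.01 to 1.85. The fall of *Patj* was at the 2-fold limit, and became -0.97 without primed P5 replicate 1, -0.84 without primed P15 replicate 2, -0.98 with no filter on low counts, and -0.90 or -0.99 with the median or lowest fibroblast share taken off. With the median share off, *Ccn2* (-1.84) and *Vgll3* (-3.01) were also called lower in primed cells at P15 than at P5. That share was as much as 95.4% of the *Ccn2* and 112% of the *Vgll3* counts of a library, so these values rest on few or no remaining counts. With the lowest share *F3* was called lower too (-1.17). Of the 15 fibroblast markers, 7 were called higher in primed cells at P15 than at P5. The state effect differed between the passages for 1 gene upward and 4 downward, shares of 1.39% and 5.56% beside 2.36% and 4.8% of all genes.

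The profiles of the 10 genes over the 9 libraries were also set beside those of 11518 other genes, by the root mean square difference of centred log2(CPM + 1) values. The profile closest to that of *Amot* was that of *Dkk1*, the gene of a secreted Wnt antagonist, at 0.148, followed by *Actc1*, a cardiac actin gene, at 0.278. The closest to *Tead2* were *Dapk1* (0.083) and *Plscr1* (0.092), and the closest to *Tead4* were *Arap2* (0.143) and *Six4* (0.150). For *Amotl1* they were *Hook3* and *Prkcd*, for *Amotl2* *Sord* and *6030458C11Rik*, for *Yap1* *Sra1* and *Psenen*, and for *Wwtr1* *Ube2h* and *Caskin2*, at 0.043 to 0.072. For *Lats2* it was *Pdlim7*, and they were for *Tead1* *Clock* and *Lonrf1*, and for *Tead3* *Vamp8* and *Tns2*, at 0.065 to 0.106. All of these values share the same libraries and depth and describe likeness of level over 9 libraries.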

How the data were processed

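Poly(A) RNA libraries had been prepared with a kit that does not mark strand. The authors used Cutadapt for trimming, HISAT2 for alignment to mm10 and featureCounts with Ensembl genes. What they deposited is a table of raw counts with 9 columns. Versions, the Ensembl release and the treatment of multiply assigned reads are not given in the sources used here. Genes were named and placed with GENCODE M21 (GRCm38), and 153 of the 54232 genes had no name there.

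Naïve and primed cells were compared within each passage (4 libraries), and passages and the difference of state effects over 8 libraries, with edgeR 4.0.16 in R 4.3.3 (quasi-likelihood test, TMM scaling, at least 10 counts in at least 2 libraries, Benjamini-Hochberg). A call needed a 2-fold change besides an adjusted p below 0.01, the thresholds of the study. The MEF library entered no fit. CPM were TMM-scaled, and 3 counts correspond to 0.148 to 0.221 CPM in the naïve and primed libraries. The fit was tested on simulated data. The 10 genes and all lists were chosen with earlier results of these data known. Named were the 10 genes, all core kinases, cofactors and trophectoderm targets, *Ccn1*, *Ccn2* and *Ankrd1*, and of each other list up to 4 called genes per passage with the largest change and at least 5 CPM, plus the 2 most alike profiles per gene. Some genes that this rule selects are not reported here. Alternatives were DESeq2 1.42.0 (size factors or its Wald test), library size alone, no count filter, all 8 libraries, a replicate block, fibroblast share taken off, no fold limit and each library left out.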

Additional observations from a re-analysis of the deposited data

Results flagged for a closer look

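For 5 of the 72 other pathway genes tested, the effect of state differed between the passages, with a 2-fold change and an adjusted p below 0.01. edgeR tested that difference directly (P15 minus P5, log2). The shares were 1.39% upward and 5.56% downward, near the 2.36% and 4.8% of all genes. *Gata3* had the widest difference, -2.75 ± 0.37 (adjusted p = 4.26e-07), with 2.34 at P5 and -0.43 at P15. *Tgfb2* differed by -2.37 ± 0.14 (adjusted p = 4.5e-15), with 2.06 at P5 and -0.32 at P15. *Ankrd1* differed by -2.18 ± 0.14 (adjusted p = 5.42e-14), with 0.15 at P5 and -2.04 at P15. *Pard6b*, a polarity gene that no naming rule had selected and that is named here after its values were seen, differed by -1.04 ± 0.10 (adjusted p = 1.85e-09), with 0.80 at P5 and -0.26 at P15. *Igfbp3* differed in the other direction, by 1.08 ± 0.07 (adjusted p = 7.35e-14), with 2.55 at P5 and 3.61 at P15, and its value fell to 0.97, under 2-fold, when libraries were scaled by size alone. With the fibroblast share taken off, its adjusted p was over 0.99 at 2.09 (median marker) and at 1.67 (lowest marker). Its naïve counts were then at 0 at both passages.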

How the results depend on the processing

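Library size alone moved the median of all genes by 0.21 (log2) at P5 and 0.10 at P15 and the share of higher calls at P5 from 60.4% to 72.6%, and 5 of the 10 genes were then called higher at P5. The count was 5 with the fibroblast share taken off by the median marker and 2 by the lowest, and 1 to 2 without a library (2 without naïve P5 replicate 1 or primed P5 replicate 2). The median share also gave 3 of them called lower at P15 and 4 lower between passages in primed cells. Without the fold limit the 10 genes had 7 higher and 1 lower at P5, 5 and 3 at P15, 1 higher in naïve and 1 higher and 6 lower in primed cells between passages, and 5 negative for the difference of effects. The other pathway genes then had 32 and 20 at P5, 23 and 20 at P15, 9 and 7 in naïve and 12 and 31 in primed cells, and 6 positive and 22 negative. For them, the naïve passage count was 2 higher and 1 lower with the median share off and 3 higher with the lowest. The primed passage count of 2 higher became 1 with library size alone, the replicate block, DESeq2's Wald test and either fibroblast share, and was 1 to 2 without a library (1 without any single primed library). The difference of effects had 0 positive with library size alone or the lowest share, 2 with no count filter, 1 to 2 without a library (2 without naïve P5 replicate 1 or naïve P15 replicate 2), and 8 negative with the median share. Causes were not tested. A fit without 1 library assumes that the lone sample varies like the other groups.

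The same replicate numbers in naïve and primed cells did not deviate together (correlations of -0.127 at P5 and -0.190 at P15 over 10001 genes; within a state, between passages, they were 0.161 and 0.159), so the numbers were not used as pairs, and the replicate block changed no other count. A block of crossed pairs, added after seeing the data, gave 12 and 3 calls at P5 and 6 and 8 at P15 among the other genes, equal to the counts without a block. Of the 158 alternative values of the 10 genes that moved by more than the replicate spread, 149 kept their sign. Differences of genes near the floor, such as *Cdx2*, are limited by depth.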
